A study of Mus musculus with 23 samples.

Results

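Cells enriched for macrophages came from infarcted hearts of mice whose gene for the inhibitory Smad Smad7 was targeted in myeloid cells. They were taken 7 days after coronary occlusion and compared with cells of the same genotype from hearts at baseline. The comparison covers every autosomal gene (chromosomes 1 to 19) with enough reads to be tested, 16001 of the 50225 autosomal genes in the deposited count table. All 7 libraries came from C57BL/6 mice with the genotype Smad7 fl/fl + LyzM-Cre (MyS7KO), so both groups carried the floxed Smad7 alleles and the Cre. The baseline group held 3 libraries (replicates 1, 2 and 3) from hearts labelled as controls, and the day 7 group held 4 (replicates 1, 3, 4 and 5) from hearts after coronary occlusion. Libraries of Smad7 fl/fl mice without Cre (S7fl/fl, 3 at baseline and 3 at day 7) and 5 MyS7KO libraries of day 3 are given beside them where they bear on a gene. The LyzM-Cre transgene is driven from the lysozyme M locus, which is active in monocytes, macrophages and neutrophils, so that recombination is confined neither to cardiac macrophages nor to the time after injury. Cells were enriched on magnetic columns, first by removing cells with the neutrophil antigen Ly6G and then by retaining cells with the myeloid integrin CD11b. CD11b is also carried by monocytes, natural killer cells and some dendritic cells. Age is not given in the labels, and they do not say whether each library came from 1 heart or whether the control hearts had a sham operation. The p-values therefore measure the spread between these libraries.

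The uninjured heart holds self-maintaining resident macrophages that scavenge debris and carry receptors such as LYVE1, TIMD4 and CD163. After an infarct, monocytes enter the dying muscle, and their macrophage progeny engulf dead cardiomyocytes, digest them in lysosomes, store and export the lipid, and release proteases and growth factors while fibroblasts lay down a scar. Smad7 is induced by transforming growth factor beta (TGF-beta) and restrains the receptors that induce it.

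Levels are CPM, the reads of a gene scaled to a common library size after correction by trimmed means (TMM). A gene is called higher or lower when its adjusted p in edgeR's quasi-likelihood test is under 0.05 (Benjamini-Hochberg, over all genes tested), and changes are log2 of day 7 over baseline ± standard error. The libraries held 16.4 to 18.3 M (mega) counts at baseline and 16.6 to 20.2 M at day 7. Reads of Xist, the RNA made from the inactive X of female cells, were found in baseline replicate 1 and in all 4 day 7 libraries, whereas Y-linked genes were read in baseline replicates 2 and 3. By these reads, sex and time point were partly confounded. With sex as a covariate, 5934 genes were called at day 7, against 7050 without it. Mitochondrial genes took 3.02 to 3.48% of the counts at baseline and 1.17 to 1.57% at day 7. On the first principal component of the autosomal genes (74.1% of the variance over all 23 libraries) the baseline libraries lay between -72.2 and -59.4 and the day 7 libraries between -8.39 and 31.57.

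The targeted gene and the Cre locus were read first. Smad7 stood at 45.6, 48.7 and 19.7 CPM at baseline and 25.2, 16, 33.4 and 19 CPM at day 7. Baseline replicate 3 lay inside the range of the day 7 libraries, so the groups overlapped, and the S7fl/fl libraries held 53.1 to 61.2 CPM at baseline and 57.4 to 70.2 CPM at day 7. Every MyS7KO library was thus below every S7fl/fl library of its own time point, although reads of Smad7 remained in all of them. The counts cover the whole gene and do not separate deleted from retained exons. Within MyS7KO, Smad7 was called lower at day 7 (log2 change -0.70 ± 0.27, edgeR adjusted p = 0.0387), but the call was lost in 11 of 18 alternative analyses, among them those without baseline replicate 1 or 2 or without day 7 replicate 1, 3 or 5. Lyz2, the lysozyme M gene that carries the Cre, rose from 2761, 2445 and 3349 CPM to 4033, 4644, 3828 and 3848 CPM (log2 change 0.52 ± 0.14). Its neighbour Lyz1, a closely related lysozyme whose reads may be hard to tell from those of Lyz2, fell from 222, 330 and 475 CPM to 111, 100, 107 and 94 CPM. For Lyz1 the log2 change was -1.73 ± 0.23, and its groups did not overlap.

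Of the 16001 genes, 3585 were called higher at day 7 (22.4%) and 3465 lower (21.7%). At least a 2-fold change was seen in 1135 of the higher and 1950 of the lower genes, and at least a 4-fold change in 382 and 680. The values of the 2 groups did not overlap for 7023 genes, 43.9% of those tested. The median log2 change over all genes tested was -0.01. With so many genes called, the count of each gene list below is read against these shares. Some genes stand in several lists, such as Ctsd in the lysosomal and lipid-associated ones and Spp1 in the collagen and lipid-associated ones. The counts of the lists are therefore not independent.

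**Figure D1:**
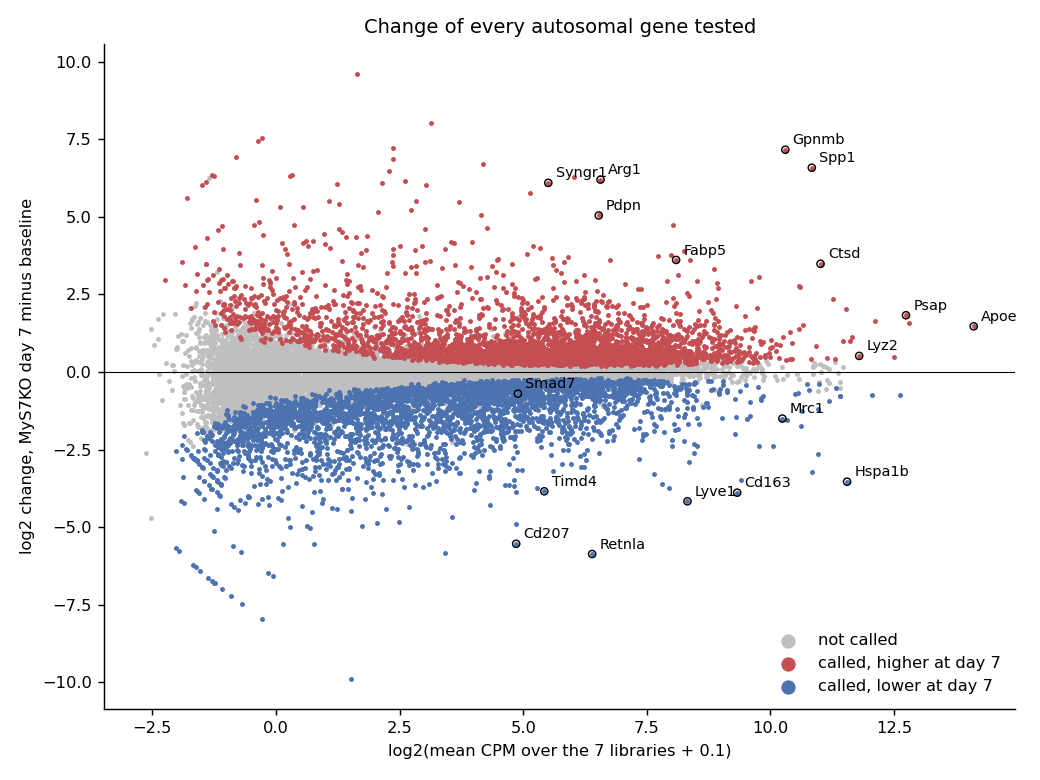
Log2 change of each autosomal gene tested (vertical axis) against log2 of its mean CPM over the 7 MyS7KO libraries (horizontal axis), with called genes in colour and 18 genes circled and named. Gpnmb (7.16) and Spp1 (6.58) stand highest among the abundant genes, and Retnla (-5.87) and Cd207 (-5.54) are the lowest of the circled ones.

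The 12 largest rises chosen by the naming rule covered genes of several kinds, among them secreted proteins, receptors, an enzyme and matrix proteins. Gpnmb, a transmembrane glycoprotein of phagocytic macrophages, stood at 15.5, 16.8 and 13.7 CPM at baseline and 2312, 3212, 1549 and 1718 CPM at day 7. All 4 day 7 libraries were far above the 3 baseline ones, a 143-fold rise (log2 change 7.16 ± 0.37). Spp1, which encodes the secreted phosphoprotein osteopontin, went from 26.7, 31.2 and 41.3 CPM to 2163, 3912, 2325 and 4315 CPM (log2 change 6.58 ± 0.34), and the 5 MyS7KO libraries of day 3 held 11279 ± 1056 CPM (mean ± SD). Arg1, the arginine-degrading enzyme arginase 1, went from 2.17, 1.64 and 2.82 CPM to 37.7, 106, 334 and 177 CPM. Its day 7 libraries were all above baseline but spread widely, with replicate 1 lowest and replicate 4 highest. For Arg1 the log2 change was 6.20 ± 0.72, and day 3 held 640 ± 138 CPM. Pdpn, the mucin-type glycoprotein podoplanin, rose 33-fold, from 5.73, 4.42 and 4.16 CPM to 130, 210, 155 and 136 CPM.

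Syngr1, a vesicle membrane protein, moved from 1.03, 1.36 and 1.04 CPM to 62.1, 107, 60.9 and 84.3 CPM, again without overlap. Cd5l, a secreted scavenger-receptor-like protein of macrophages, reached 36.2, 42.7, 60.5 and 104 CPM from 2.06, 0.491 and 0.793 CPM. Htr2b, a serotonin receptor, rose from 0.258, 0.709 and 0.496 CPM to 23.1, 27.8, 18.1 and 19.4 CPM, and Stra6l, a receptor for retinol-binding protein, from 0.722, 0.981 and 0.991 CPM to 39, 37.4, 19.8 and 24.5 CPM. These 4 genes had log2 changes between 5.06 and 6.10. Saa3, an acute-phase serum amyloid, was the most variable of the group, at 2.84, 1.2 and 0.297 CPM at baseline and 8.3, 44.9, 157 and 244 CPM at day 7. It was called (log2 change 6.30 ± 1.42), but lost the call when replicate 1 was the only baseline library kept. For 3 genes a baseline library held 3 counts or fewer, so levels are given without a fold. Mcoln3, a cation channel of endosomes and lysosomes, stood at 0.0516, 0 and 0.0991 CPM at baseline and 17.9, 18, 12.9 and 12 CPM at day 7. Cthrc1, a secreted protein of activated fibroblasts, stood at 0.258, 0.164 and 0.446 and 45.8, 18, 32.1 and 30.2 CPM. Col11a1, a chain of a fibrillar collagen, stood at 0.31, 0.218 and 0.0991 and 15.8, 13.8, 13.2 and 13 CPM.

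The 12 largest falls chosen by the same rule included surface receptors, lectins and secreted proteins. Retnla, a secreted resistin-like protein of alternatively activated macrophages, stood at 161, 149 and 264 CPM at baseline and 3.42, 1.79, 6.93 and 1.06 CPM at day 7. No day 7 library came near the lowest baseline library (log2 change -5.87 ± 0.57). Lyve1, a hyaluronan receptor, fell from 652, 697 and 734 CPM to 52.3, 54, 27.4 and 21.2 CPM, 18-fold lower. Cd163, which takes up haemoglobin bound to haptoglobin, fell from 1420, 1172 and 1538 CPM to 119, 100, 102 and 50.7 CPM, 14.8-fold lower. Timd4, a receptor for phosphatidylserine on dying cells, fell from 85.3, 80.9 and 108 CPM to 7.4, 6.32, 7.69 and 4.13 CPM. These 3 receptors are among the usual markers of the long-lived resident population, and their day 3 means in MyS7KO were 17.4 ± 8.25, 48.9 ± 14.1 and 2.6 ± 0.454 CPM.

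Mgl2, a galactose-binding lectin, went from 472, 441 and 658 CPM to 60.9, 30.2, 39.4 and 25.9 CPM (log2 change -3.74 ± 0.24). Cd207, the lectin langerin, went from 49, 101 and 46.4 CPM to 1.12, 0.958, 1.57 and 1.91 CPM (log2 change -5.54 ± 0.38). Pla2g2d, a secreted phospholipase A2, fell from 55.7, 57.6 and 79.8 CPM to 1.29, 1.09, 5.07 and 1.21 CPM, and Cxcl13, a chemokine that attracts B cells, from 27.7, 76.9 and 27.3 CPM to 0.505, 2.24, 2.8 and 3.32 CPM. Timp4, a tissue inhibitor of metalloproteinases, fell 14.5-fold and Tmod1, which caps actin filaments, 13.8-fold. Cytl1, a small secreted protein, stood at 35.1, 22.5 and 14.4 CPM and then 0.337, 0.128, 0.874 and 0.302 CPM. Cd209f, a C-type lectin, stood at 17.1, 38.5 and 22 CPM and then 1.35, 0.0639, 1.81 and 0.805 CPM. In both of these a day 7 library held 3 counts or fewer.

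**Figure D2:**
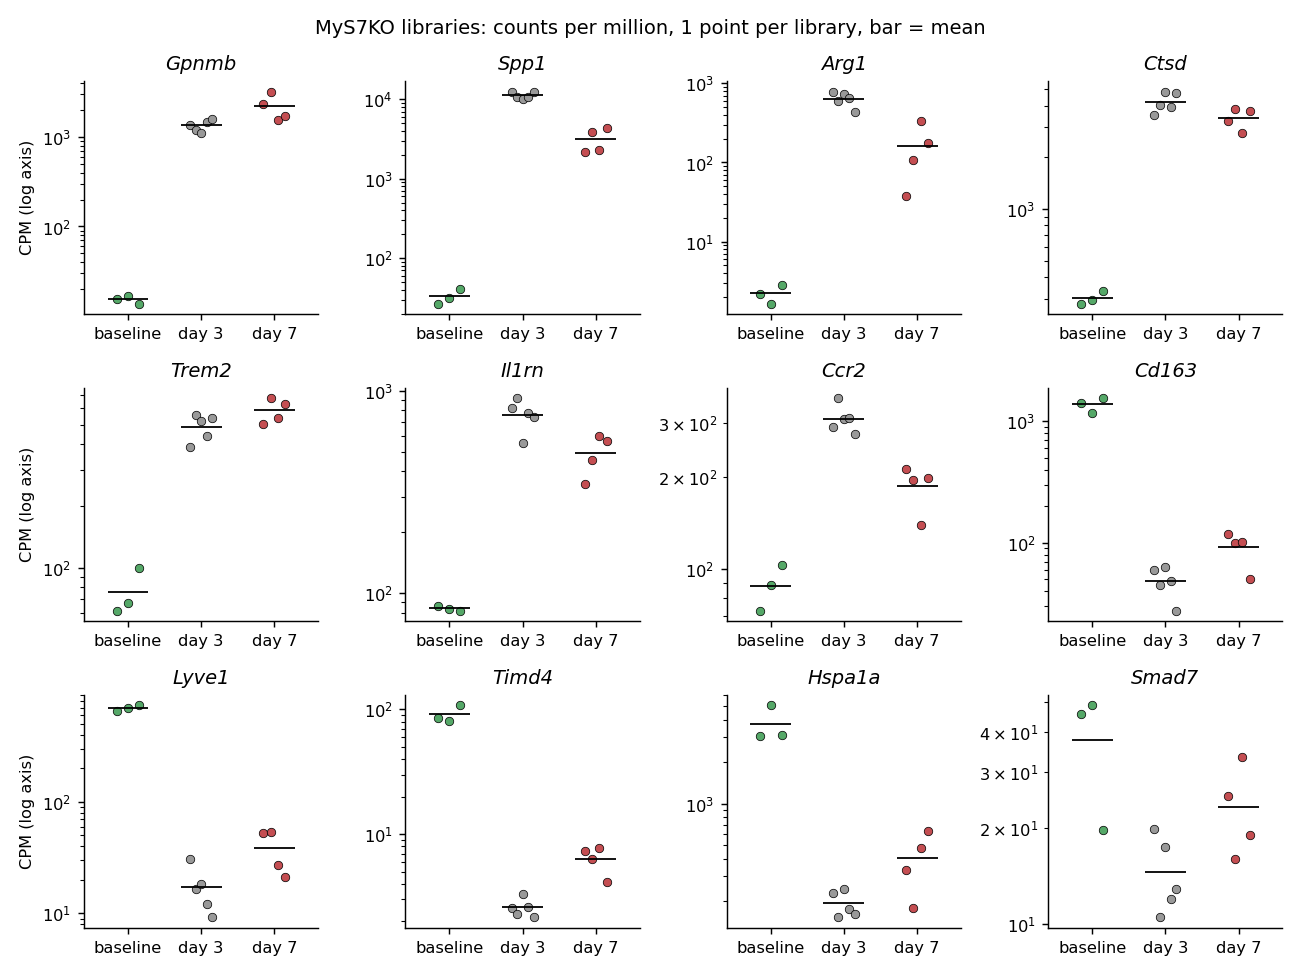
CPM of 12 genes (vertical axes, logarithmic) in the MyS7KO libraries of baseline, day 3 and day 7, with 1 point per library and a bar at the mean. Gpnmb, Spp1, Arg1, Ctsd, Trem2, Il1rn and Ccr2 are higher in every day 7 than in every baseline library, Cd163, Lyve1, Timd4 and Hspa1a are lower in every one, and Smad7 overlaps.

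Lysosomal genes rose together. Of 34 cathepsins, hydrolases and lysosomal membrane genes tested, 29 were called higher and 0 lower, against 22.4% and 21.7% of all genes, and the median log2 change was 1.14. In 29 of the 34 the groups did not overlap. Ctsd, the aspartic protease cathepsin D, stood at 280, 296 and 332 CPM at baseline and 3270, 3833, 2769 and 3709 CPM at day 7, 11.2-fold higher (log2 change 3.49 ± 0.19). Ctss, a cysteine protease that also trims the invariant chain, rose from 1004, 908 and 1269 CPM to 3765, 5210, 3892 and 4628 CPM. Ctsl, Ctsb and the collagen-degrading Ctsk changed by 2.07 ± 0.20, 1.59 ± 0.15 and 3.99 ± 0.36 on the log2 scale. Gusb, the glycan-degrading enzyme beta-glucuronidase, changed by 1.23 ± 0.10. Psap, the precursor of sphingolipid activator proteins, rose from 2894, 2646 and 2825 CPM to 9406, 12173, 8367 and 9719 CPM. Lipa, the acid lipase that frees cholesterol and fatty acids, changed by 1.54 ± 0.15, the cholesterol exporter of the lysosome Npc1 by 1.51 ± 0.17, and Grn, which encodes progranulin, by 1.29 ± 0.17. Atp6v0d2, a subunit of the proton pump, rose from 2.99, 3.38 and 5.5 CPM to 63, 72, 52 and 35.7 CPM. The 5 members not called were Tpp1, Neu1, Cst3, Ctsc and Ctso.

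The transcription factors of the MiT/TFE family bind an E-box with the letters CACGTG near the starts of many lysosomal genes, and so the windows of the called genes were read for it. RefSeq windows of 250 bases before to 50 bases after the start (GRCm38.p6, the build of the files) were at hand for 18 of the 29 genes. The palindrome CACGTG stood in 7 of the 18 (38.9%), against 8.11% of all 25748 autosomal genes with a window and 11.2% of those tested. Of all genes called higher that had a window, 13% held it. A gene counted if any of its windows held the motif. A match is a description of the letters and not evidence of binding. The sequences below, upstream of the start and read on the strand of the gene, show 4 of the 7 with the motif in capitals. Ctsd is on the minus strand at chr7:142387828-142387947, Lamp1 (a lysosomal membrane glycoprotein) on the plus strand at chr8:13159071-13159160, Glb1 (beta-galactosidase) on the plus strand at chr9:114400988-114401077 and Atp6v1a (a proton pump subunit) on the minus strand at chr16:44139260-44139409.
Ctsd: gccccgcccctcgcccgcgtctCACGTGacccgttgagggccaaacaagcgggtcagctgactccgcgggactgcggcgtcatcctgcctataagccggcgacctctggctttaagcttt
Lamp1: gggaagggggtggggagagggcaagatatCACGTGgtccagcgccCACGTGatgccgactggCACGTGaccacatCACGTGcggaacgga
Glb1: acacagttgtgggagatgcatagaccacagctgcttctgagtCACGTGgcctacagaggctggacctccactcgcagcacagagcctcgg
Atp6v1a: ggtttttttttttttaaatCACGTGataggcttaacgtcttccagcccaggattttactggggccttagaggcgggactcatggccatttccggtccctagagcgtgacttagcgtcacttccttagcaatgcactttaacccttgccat

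Lamp1 holds the motif 4 times within 61 bases of its start, and Ctsd, Glb1 and Atp6v1a hold it 98, 48 and 131 bases before theirs. The family's autosomal members themselves were called higher. Mitf stood at 35.4, 35.8 and 47.6 CPM at baseline and 69.7, 94, 59.7 and 61.8 CPM at day 7 (log2 change 0.85 ± 0.16). Tfec stood at 16.6, 10.7 and 17.3 CPM at baseline and 25.7, 47.1, 23.5 and 22.7 CPM at day 7 (1.00 ± 0.24), and Tfeb at 27.8, 27.5 and 26.8 CPM at baseline and 40.5, 51, 33.7 and 34.3 CPM at day 7 (0.54 ± 0.17). In all 3 the groups did not overlap and day 7 replicate 3 was highest. The Tfeb call was lost without that replicate or with sex as a covariate. Whether these factors act on the lysosomal genes was not tested.

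Genes of the lipid-associated macrophage state were called higher in 24 of 28 cases and lower in 3, with a median log2 change of 1.53. Trem2, the lipid-sensing receptor of this state, rose from 61.7, 67.3 and 100 CPM to 505, 671, 540 and 628 CPM, 7.68-fold higher. Fabp5, a fatty acid carrier, rose 12.2-fold, from 39.5, 36.7 and 34.3 CPM to 365, 575, 360 and 503 CPM. Lgals3 (galectin 3) rose 8.28-fold, and Cd9, a tetraspanin, changed by 1.33 ± 0.11. Apoe, the apolipoprotein of cholesterol export, was already abundant at 8407, 7495 and 10513 CPM and reached 20667, 28904, 23267 and 24920 CPM. Against this direction, the fatty acid translocase Cd36 fell from 1437, 1097 and 1053 CPM to 458, 403, 529 and 396 CPM. The other 2 members called lower were Fabp4 and Hmox1, and only 1 of the 3 calls remained without baseline replicate 2 or without day 7 replicate 1 or 5.

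Of 33 cholesterol and lipid handling genes 16 were called higher, Apoe among them, 3 were called lower and 14 were not called (median log2 change 0.30). The exporters Abca1 and Abcg1 rose from 444, 472 and 395 to 1072, 1702, 813 and 816 CPM and from 32.9, 38.6 and 29.2 to 138, 115, 128 and 144 CPM. Soat1, which esterifies cholesterol for storage, changed by 1.45 ± 0.12. Nr1h3, the sterol-sensing receptor LXR alpha, changed by 1.18 ± 0.18, and its targets Srebf1 and Lpcat3 by 0.91 ± 0.12 and 0.81 ± 0.088. The 3 called lower were Mylip (-0.92 ± 0.11), which marks the lipoprotein receptor for breakdown, Scd1 (-1.49 ± 0.44), a fatty acid desaturase, and Acat1 (-0.85 ± 0.12), a mitochondrial thiolase, of which Mylip and Scd1 are also known targets of LXR. The Scd1 call was lost without baseline replicate 1. Olr1, a receptor for oxidised lipoprotein, rose 7.95-fold.

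Receptors for the uptake of dead cells and debris moved in both directions, with 14 of 33 called higher and 10 lower (median log2 change 0.27). Cd300lf, a phosphatidylserine receptor, rose from 6.45, 8.99 and 7.29 CPM to 77.8, 91.4, 99.2 and 129 CPM. Itgb5 (integrin beta 5), Scarb2 (a lysosomal receptor) and Lrp1 (a large endocytic receptor) changed by 1.56 ± 0.10, 0.85 ± 0.077 and 1.37 ± 0.24. The resident receptors Timd4, Cd163 and Mrc1 fell, the last from 1837, 1644 and 2284 CPM to 588, 972, 578 and 583 CPM. Gas6, the bridging ligand of the TAM receptors, fell (log2 change -0.91 ± 0.15), whereas its receptors were not called, with Mertk at 0.23 ± 0.14 and Axl at 0.12 ± 0.13. Of the complement C1q chains, which also mark resident macrophages, C1qa (0.09 ± 0.18) and C1qc (0.15 ± 0.15) were not called.

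Resident cardiac macrophage genes as a list had 17 of 27 members called lower, 3 called higher and a median log2 change of -1.36. In 18 of the 27 the groups did not overlap. Folr2, a folate receptor of resident macrophages, fell from 111, 98.6 and 132 CPM to 21.4, 20.4, 19.2 and 18.3 CPM (5.75-fold lower). Cbr2, a carbonyl reductase, fell from 584, 516 and 830 CPM to 111, 98.5, 71.8 and 66.5 CPM. F13a1, the A subunit of coagulation factor XIII, fell from 1880, 1640 and 2398 CPM to 384, 612, 290 and 231 CPM. Maf, a transcription factor of this population, changed by -0.95 ± 0.15. In bulk RNA, fewer cells of a type and less of a transcript per cell cannot be told apart. The 3 called higher were Apoe, Igf1 and C1qb, and 1 was left without baseline replicate 1 or without baseline replicate 2. General macrophage markers had another pattern. Of 14 such markers 10 were called higher and 0 lower (1 lower, Csf1r, without day 7 replicate 3), and their summed level was 9750 to 13094 CPM at baseline and 14416 to 18690 CPM at day 7. Among them Cd68, a lysosomal glycoprotein, changed by 1.12 ± 0.13, Fcgr1, the high-affinity IgG receptor, by 1.37 ± 0.18, and Adgre1, which encodes F4/80, by 0.49 ± 0.14.

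Genes of reparative and alternatively activated macrophages split, with 11 of 28 called higher and 10 lower (median log2 change 0.23). Vegfa, the endothelial growth factor, rose from 63.4, 56 and 30.9 CPM to 363, 313, 431 and 421 CPM, and Hgf, hepatocyte growth factor, from 11.7, 12.9 and 14.2 CPM to 50.6, 70.5, 29.6 and 40 CPM. Il10, an anti-inflammatory cytokine, rose from 39.7, 45.7 and 35.7 CPM to 154, 218, 141 and 207 CPM (4.46-fold). Trem2 and Arg1 belong to the same list. Opposite to them were Retnla, Mgl2, Mrc1 and Cd163. The rise of Arg1 and the fall of Retnla, which are often read together as signs of alternative activation, were both without overlap between the groups.

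The list of classical monocyte genes had 14 of 28 members called higher and 4 lower (median log2 change 0.56). It also holds genes of non-classical monocytes such as Ace, and Ly6c1 is also among the endothelial markers. The members that rose included Thbs1 (thrombospondin 1, 6.78-fold higher), Msrb1 (a methionine sulfoxide reductase, 1.56 ± 0.15) and Smpdl3a (a phosphodiesterase, 1.44 ± 0.16). The surface marker of inflammatory monocytes, Ly6c2, stood at 13.6, 8.18 and 5.8 CPM at baseline and 9.25, 5.43, 20.7 and 20 CPM at day 7 and was not called, nor was Plac8 (0.46 ± 0.41). The count of 4 lower, Ifitm6, Ly6c1, Ace and S100a9, was 2 without baseline replicate 1, and that of the 14 higher was 9 with baseline replicate 1 as the only baseline library. Ccr2, the receptor for monocyte chemoattractants, rose from 73, 88.3 and 103 CPM to 212, 196, 139 and 199 CPM, and day 3 held 311 ± 32.4 CPM. Among 26 chemokine and trafficking receptors, 15 were called higher and 4 lower (median log2 change 0.85). Ccrl2, an atypical chemokine receptor, changed by 2.13 ± 0.15 and Itgax, integrin CD11c, by 1.37 ± 0.13. Ccr7, the receptor that directs cells to lymph nodes, rose from 7.07, 7.25 and 6.39 CPM to 53.5, 42.7, 46.2 and 36.8 CPM. It is also a marker of dendritic cells, whose 14 markers had 7 called higher and 5 lower (median log2 change 1.02) and summed to 160 to 197 CPM at baseline and 174 to 257 CPM at day 7, with overlap. Among them Xcr1, a chemokine receptor of cross-presenting dendritic cells, changed by 2.15 ± 0.48 and Zbtb46, a transcription factor of conventional dendritic cells, by -1.21 ± 0.24, and the part of dendritic cells in the Ccr7 values was not tested. Vcam1, an adhesion molecule, fell from 262, 288 and 268 CPM to 50.8, 46.6, 114 and 101 CPM.

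The ligands of these receptors moved differently by family. Of 14 CC chemokines 7 were called lower and 1 higher (median log2 change -0.57), and the higher one, Ccl22, lost its call without any of baseline replicates 1 or 3 or day 7 replicates 1, 3 or 4. Ccl2, the main ligand of Ccr2, stood at 333, 319 and 439 CPM at baseline and 155, 169, 130 and 191 CPM at day 7. Its relative Ccl7 stood at 287, 247 and 288 CPM at baseline and 132, 149, 112 and 160 CPM at day 7. Both were thus lower in each day 7 library than in each baseline library while their receptor was higher, and day 3 held 464 ± 38 and 580 ± 27.2 CPM. Ccl24, an eosinophil attractant, fell 13.2-fold, from 75.7, 63.7 and 106 CPM to 5.95, 5.94, 8.21 and 4.73 CPM. Ccl9, a chemokine of myeloid cells, fell from 537, 543 and 661 CPM to 248, 291, 302 and 318 CPM. Its relative Ccl6 changed by -1.13 ± 0.20, and Ccl11, another eosinophil attractant, by -2.44 ± 0.38. Ccl3 (0.08 ± 0.17) and Ccl8 (0.37 ± 0.33) were not called. Of 14 CXC chemokines 4 were called higher and 4 lower. Cxcl1, a neutrophil attractant, rose from 281, 279 and 294 CPM to 476, 637, 670 and 602 CPM and Cxcl16, a membrane-bound chemokine, changed by 1.01 ± 0.15. Pf4, platelet factor 4, fell from 377, 360 and 573 CPM to 119, 192, 148 and 189 CPM. The 4 lower were Pf4, Cxcl13, Cxcl12 and Cx3cl1, and the 4 higher were Cxcl16, Cxcl1, Cxcl3 and Cxcl14, of which 2 remained in number with baseline replicate 1 as the only baseline library.

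Inflammatory mediators were called higher in 11 of 25 cases and lower in 1 (median log2 change 0.57). Il1b, interleukin 1 beta, stood at 790, 760 and 1203 CPM at baseline and 1401, 1285, 2132 and 2188 CPM at day 7 (log2 change 0.93 ± 0.26). Its natural antagonist Il1rn rose more, from 86.2, 83.8 and 82.1 CPM to 348, 453, 600 and 568 CPM (log2 change 2.55 ± 0.25), and the decoy receptor Il1r2 changed by 1.62 ± 0.19. Ptgs2, the inducible cyclooxygenase, rose 5.12-fold. Several classical mediators were not called, namely Tnf (-0.19 ± 0.20), Il6 (-0.13 ± 0.43) and Nos2. Nos2, the inducible nitric oxide synthase, stood at 16.9, 16.1 and 8.77 CPM at baseline and 7.57, 1.21, 111 and 11.2 CPM at day 7, so that day 7 replicate 4 alone was high and the others lay within or below the baseline range. The 1 gene called lower, Csf1, lost its call in 12 of 18 alternatives, including those without baseline replicate 1 or 2 and without day 7 replicate 3, 4 or 5.

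Interferon response genes had 7 of 41 members called higher and 6 lower (median log2 change 0.24), below the background of 22.4% and 21.7%. Oas3, an antiviral enzyme, rose from 13.5, 11.2 and 8.03 CPM to 32.9, 24.7, 67.7 and 76.5 CPM, while Oas2 fell from 142, 165 and 173 CPM to 64.4, 26.8, 76.4 and 85.3 CPM and the transcription factor Irf1 from 401, 446 and 553 CPM to 167, 127, 302 and 243 CPM. Ifit3, a protein that binds viral RNA, stood at 26.4, 18.2 and 26 CPM at baseline and 32.4, 19.4, 67.8 and 85.1 CPM at day 7, and Isg15, a ubiquitin-like protein, at 35, 26.5 and 22.1 CPM at baseline and 31.2, 29.2, 59.1 and 60 CPM at day 7. In both of these genes day 7 replicates 4 and 5 were high and replicates 1 and 3 near baseline. Ifit3 was called higher but not without baseline replicate 2 or day 7 replicate 5, and Isg15 was called only in the fit without day 7 replicate 3 and with limma-voom. Without replicate 3 of day 7 the list had 18 members called higher, without replicate 4 it had 4, without replicate 5 it had 3, and without baseline replicate 2 or 3 it had 4.

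Genes of class II of the major histocompatibility complex (MHC) and of co-stimulation had 7 of 19 called higher and 8 lower (median log2 change -0.24). The antigen-binding chains were among the lower and the processing enzymes Ctss and Ifi30 among the higher. Accessory chains split, with H2-DMa and H2-DMb1 lower and H2-DMb2 and H2-Oa higher. The call of the antigen-binding chain H2-Ab1 was lost without baseline replicate 1 or 3 or without day 7 replicate 3. The chains H2-Aa and H2-Eb1 changed by -0.78 ± 0.17 and -0.79 ± 0.15, and their invariant chain Cd74 fell from 8715, 7299 and 8500 CPM to 4482, 3791, 5935 and 5159 CPM. Ciita, the transactivator of class II genes, changed by -0.92 ± 0.20. The protease Ctss, the thiol reductase Ifi30 (1.23 ± 0.13) and the accessory chain H2-Oa (1.77 ± 0.23) were called higher, as was Cd274, the inhibitory ligand PD-L1, which rose from 49.4, 34.6 and 29.8 CPM to 99.4, 114, 121 and 88.4 CPM.

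Complement and coagulation genes had 8 of 27 called higher and 8 lower (median log2 change 0.19), against 22.4% and 21.7% of all genes tested. F7, the starter protease of coagulation, rose from 1.34, 0.709 and 1.34 CPM to 20.6, 18.9, 21.1 and 20.2 CPM, and Plaur, the urokinase receptor, changed by 1.34 ± 0.17. Iron handling genes were 10 of 24 called higher and 7 lower. The ferritin chains Fth1 and Ftl1 rose from 2122, 1939 and 1954 to 5302, 6949, 6379 and 6590 CPM and from 1800, 1855 and 2311 to 3650, 4420, 3654 and 4155 CPM. Spic, the transcription factor of iron-recycling macrophages, fell from 35.9, 33.7 and 39.6 CPM to 10.6, 11.9, 11.5 and 9.16 CPM. Hmox1, which opens the haem ring, stood at 1642, 2031 and 2104 CPM at baseline and 971, 2062, 907 and 858 CPM at day 7, and the groups overlapped through day 7 replicate 3. Its call as lower was lost without any of baseline replicates 2 or 3 or day 7 replicates 1, 4 or 5 (largest adjusted p in edgeR 0.465), and the exporter Slc40a1 was not called (-0.32 ± 0.23).

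Smad7 acts in the TGF-beta pathway, whose components were called higher in 8 of 32 cases and lower in 11 (median log2 change -0.09, with a range of -0.17 to -0.05 over the alternatives). Over all genes tested, 22.4% were called higher and 21.7% lower. Among ligands, Tgfb1 stood at 247, 221 and 200 CPM at baseline and 333, 411, 343 and 331 CPM at day 7 (log2 change 0.67 ± 0.15), Gdf15, a stress-induced relative, rose 4.74-fold, and Bmp2, a bone morphogenetic protein (BMP), fell from 65.7, 92.6 and 60.2 CPM to 16.5, 16, 19 and 18.8 CPM. Inhba, which encodes an activin chain, stood at 4.95, 4.14 and 2.97 CPM at baseline and 13.9, 6.07, 128 and 31.4 CPM at day 7, with replicate 4 far above the rest. Among proteins that store the latent ligand, Ltbp3 and Ltbp2 changed by 1.70 ± 0.22 and 3.28 ± 0.60. Among receptors, Tgfbr1 rose from 219, 227 and 288 CPM to 631, 696, 596 and 605 CPM, Tgfbr2 was not called (-0.05 ± 0.11), and the BMP and endothelial-type receptors Bmpr1a, Acvrl1, Eng and the co-receptor Tgfbr3 were called lower, at -1.81 ± 0.34, -0.74 ± 0.12, -1.26 ± 0.31 and -1.79 ± 0.38. Eng, Acvrl1 and Tgfbr3 are also made by endothelial and mural cells, whose markers fell in the same libraries, and their part in these calls was not tested. Of the signal transducers, Smad5, which acts downstream of BMP receptors, was called lower (-0.56 ± 0.17), and Smad1, Smad2, Smad3 (0.29 ± 0.20) and Smad4 were not called.

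TGF-beta and BMP response genes, a list that shares Skil, Ltbp2, Smad6 and Smad7 with the pathway list, were called higher in 13 of 22 cases and lower in 7 (median log2 change 0.78). The 4 members that are shared stood on both sides. Matrix-related responders rose, with Fn1 (fibronectin) at 465, 431 and 185 CPM at baseline and 2536, 2617, 2588 and 1976 CPM at day 7 and the integrin subunit Itgav changing by 1.72 ± 0.17. The calls of Skil and Smad6 were, like that of Smad7, lost when any 1 of several libraries was left out. The BMP-responsive inhibitors of differentiation split. Id1 stood at 129, 159 and 84.9 CPM at baseline and 10.9, 6.2, 31.8 and 14.2 CPM at day 7 and Id3 at 173, 241 and 163 CPM at baseline and 89.4, 80.2, 126 and 120 CPM at day 7, both without overlap, while Id2 changed by 0.77 ± 0.13. The count of 7 lower was 4 without baseline replicate 2 and 4 without day 7 replicate 5.

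Collagens and matricellular genes were called higher in 20 of 31 cases and lower in 1, Dcn (median log2 change 1.54). Col1a1, the main chain of scar collagen, stood at 120, 73 and 32.2 CPM at baseline and 963, 410, 970 and 665 CPM at day 7. Col3a1 stood at 223, 159 and 102 CPM at baseline and 1948, 638, 1421 and 966 CPM at day 7. Postn, the matricellular protein periostin, stood at 37.1, 41.9 and 23.8 CPM at baseline and 809, 253, 588 and 385 CPM at day 7. In all 3, day 7 replicate 3 was lowest of its group yet above every baseline library, and the log2 changes were 3.33 ± 0.52, 2.94 ± 0.52 and 3.89 ± 0.52. The summed level of fibroblast markers, a list that includes these 3 genes, was 1362 to 2694 CPM at baseline and 2270 to 5746 CPM at day 7, lowest at day 7 in replicate 3. Of 16 fibroblast markers 6 were called higher, all of them also in the collagen list, and 4 lower (median log2 change -0.22). The number lower was 7 without baseline replicate 3 or day 7 replicate 1, and 2 without baseline replicate 1 or 2 or day 7 replicate 3 or 5. Among the fibroblast markers called lower, Dcn stood at 400, 383 and 233 CPM at baseline and 207, 59.4, 155 and 85.3 CPM at day 7. Pdgfra, also called lower, stood at 44.4, 35.5 and 18.1 CPM at baseline and 19.3, 7.28, 14.5 and 7.4 CPM at day 7. The calls of Dcn and Pdgfra were lost without baseline replicate 1 or 2 and without day 7 replicate 3 or 5, and that of Dcn also without replicate 4. The part of fibroblast RNA in the collagen counts was not tested. Col4a1, a basement membrane chain, was not called (0.20 ± 0.42). With baseline replicate 1 as the only baseline library 10 collagen and matricellular genes were called higher.

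Matrix proteases and their inhibitors were called higher in 12 of 26 cases and lower in 7 (median log2 change 0.67). Mmp14, a membrane-anchored collagenase, rose from 39.2, 30.4 and 22.4 CPM to 370, 420, 443 and 451 CPM, 13.7-fold higher. Adam8, a shedding protease of leukocytes, rose 12.1-fold, and Mmp12, the macrophage elastase, changed by 1.57 ± 0.26. The secreted collagenase Mmp13 fell, from 195, 139 and 195 CPM to 34.7, 25.3, 31 and 23.4 CPM. In Mmp13 and Mmp14, 2 collagenases, the groups did not overlap and the directions were opposite.

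Genes of glucose use had a higher median change than those of respiration, a difference that was not tested. Glycolysis and hypoxia genes were called higher in 25 of 35 cases and lower in 4 (median log2 change 0.81). The glucose transporter Slc2a1 rose from 62.5, 69.1 and 41.7 CPM to 143, 199, 170 and 133 CPM, Pgam1 (phosphoglycerate mutase) and Pkm (pyruvate kinase) changed by 1.79 ± 0.15 and 1.39 ± 0.14, and Ldha (lactate dehydrogenase) by 0.92 ± 0.14. Hif1a, the oxygen-regulated transcription factor, changed by 1.13 ± 0.15. Nuclear genes of the respiratory chain and citrate cycle had 23 of 46 called higher and 1, Idh2, lower (median log2 change 0.37). Examples are Cox5a (0.98 ± 0.15), Sdhb (0.69 ± 0.10) and Uqcrfs1 (0.57 ± 0.10). Transcripts of the mitochondrial genome went the other way as a share of the library, as given above. The Idh2 call was lost without baseline replicate 3, and 13 respiratory genes were called higher with baseline replicate 1 as the only baseline library. Beside Arg1, arginine and polyamine genes had 8 of 19 called higher and 3 lower, with Arg2 changing by 2.79 ± 0.26, the spermine oxidase Smox by 1.63 ± 0.17 and Amd1, which supplies the aminopropyl group of polyamines, by -0.85 ± 0.087.

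Cell cycle genes were called higher in 20 of 50 cases and lower in 2 (median log2 change 0.42). Mki67, the proliferation antigen, stood at 86.2, 89.6 and 98.9 CPM at baseline and 179, 188, 114 and 152 CPM at day 7, E2f8, a late cell cycle repressor, changed by 1.08 ± 0.22, and Ccnb1, a mitotic cyclin, by 0.97 ± 0.27. Ccne1, the cyclin of S phase entry, changed by 1.56 ± 0.29, and Ccnd1, a cyclin that responds to growth factors, changed by -0.83 ± 0.15. The number called higher was 12 without baseline replicate 1, 11 without baseline replicate 2, 11 without day 7 replicate 5 and 5 with baseline replicate 1 alone, where Mki67, Ccnb1 and Ccne1 were no longer called. The cell cycle homology region (letters TTTGAA on either strand) stood in the promoter windows of 10 of 18 called members (55.6%). It stood in 19.9% of all autosomal genes with a window, in 14.7% of those tested and in 14.2% of all genes called higher. As for the E-box above, members not called were not read. Other motifs read across the lists are not given, and a link to the day 7 change was not tested.

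Calcium-binding S100 proteins, annexins and galectins were called higher in 16 of 23 cases and lower in 2 (median log2 change 0.56). Beside Lgals3, Anxa4 and Capg changed by 1.36 ± 0.12 and 1.56 ± 0.14, and Anxa1, an annexin that dampens neutrophil entry, by 1.05 ± 0.13. The 2 called lower were S100a9 and Tagln2, and without baseline replicate 1 there were 0. Macrophage transcription factors were 15 of 36 called higher and 8 lower (median log2 change 0.23). Spi1 and Cebpa, which set the myeloid identity, changed by 0.97 ± 0.14 and 1.13 ± 0.14, Runx3 by 1.44 ± 0.12, Bhlhe40 by 1.69 ± 0.19 and Irf8 by 0.50 ± 0.092. Klf2 and Klf4 were among the lower, at -2.37 ± 0.41 and -0.91 ± 0.12.

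Early response and heat shock genes, which also rise when tissue is digested into single cells, had 20 of 39 members called lower and 7 higher (median log2 change -0.61). Hspa1a, an inducible chaperone, stood at 3066, 5090 and 3113 CPM at baseline and 333, 176, 481 and 630 CPM at day 7. Its twin Hspa1b, whose reads may be split with Hspa1a, stood at 5147, 8667 and 5029 CPM at baseline and 466, 192, 626 and 884 CPM at day 7. Hsp90aa1, another chaperone, fell from 3006, 4947 and 3536 CPM to 529, 568, 648 and 735 CPM, and Dnajb1, a co-chaperone, from 462, 877 and 664 CPM to 91.1, 82.4, 141 and 127 CPM. Baseline replicate 2 was highest in all 4. The activator protein 1 subunit Jun changed by -1.74 ± 0.16 and the immediate early factor Egr1 by -1.55 ± 0.24, whereas Fos was not called (-0.60 ± 0.25), although it was in 8 of 18 alternatives, among them those without baseline replicate 1 or day 7 replicate 4 or 5. Dusp5, a phosphatase of activated kinases, rose from 75.5, 76.8 and 57.4 CPM to 249, 251, 255 and 251 CPM. Whether handling of the tissue differed between the time points is not stated in the labels, and its part in these changes was not tested. With baseline replicate 1 alone 13 members were called lower.

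**Figure D3:**
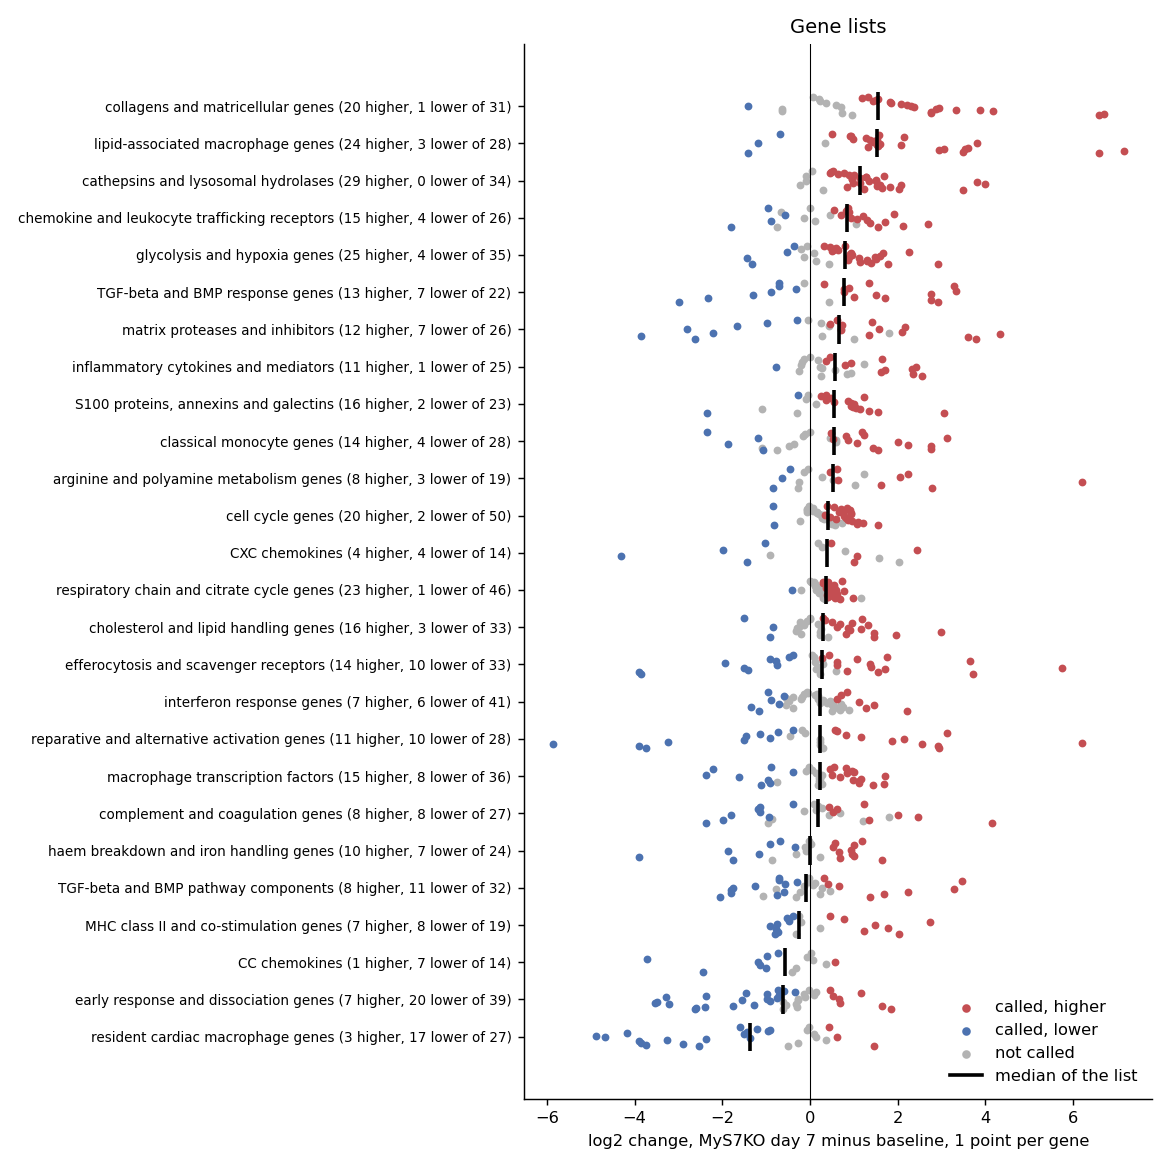
Log2 change of every tested member of 26 gene lists (horizontal axis, 1 point per gene, MyS7KO day 7 minus baseline), with the median of each list as a bar and the counts of called members beside its name. Collagen, lipid-associated and lysosomal genes have the highest medians (1.54, 1.53 and 1.14) and resident macrophage and early response genes the lowest (-1.36 and -0.61). Some genes stand in several lists.

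Markers of other cells in the sort changed too. Of 16 endothelial markers 13 were called lower and 1 higher, and their summed level was 2144 to 4543 CPM at baseline and 360 to 2354 CPM at day 7. Kdr, a receptor for vascular endothelial growth factor, stood at 444, 353 and 191 CPM at baseline and 106, 34.9, 185 and 85.6 CPM at day 7. Mural cell markers, of pericytes and smooth muscle, had 7 of 12 called lower and 0 higher, and summed to 1164 to 1945 CPM and then to 99.4 to 723 CPM. Acta2, smooth muscle actin, fell from 382, 332 and 243 CPM to 40.7, 15.2, 85.2 and 41.3 CPM. In both lists day 7 replicate 3 held least and replicate 4 most. Without baseline replicate 1 the endothelial count was 8, and without day 7 replicate 4 the mural count was 11.

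Cardiomyocyte markers, with 8 of 16 called lower and 0 higher, were scarce and summed to 91.7 to 122 CPM at baseline and 18.3 to 87.3 CPM at day 7. The count of 8 was 4 without baseline replicate 2, and 5 without baseline replicate 3 or day 7 replicate 3 or 5. Natural killer cell markers had 8 of 12 called lower and 1, Klrd1, higher, with sums of 68.4 to 128 CPM and then 32.8 to 64.3 CPM, and 4 were called lower without baseline replicate 1. Among neutrophil markers 4 of 15 were called higher (Il1r2, Csf3r, Mmp8 and Padi4) and 4 lower (Ltf, Ngp, Camp and S100a9), and none of the latter without baseline replicate 1. The defining neutrophil gene Ly6g did not pass the low-count filter. Of 14 listed T cell markers 7 were tested, and Cd3d, Cd3e and Cd3g were below the filter. The summed level of those tested was 28.8 to 36.8 CPM at baseline and 112 to 133 CPM at day 7, and the 3 called higher were Il7r, which also belongs to the lipid-associated list, Cd5 and Tcf7. B cell markers had 4 of 13 called lower and 1, Cd22, higher, with sums of 256 to 326 and 167 to 217 CPM. The part of any of these cells in the lists above was not tested.

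**Figure D4:**
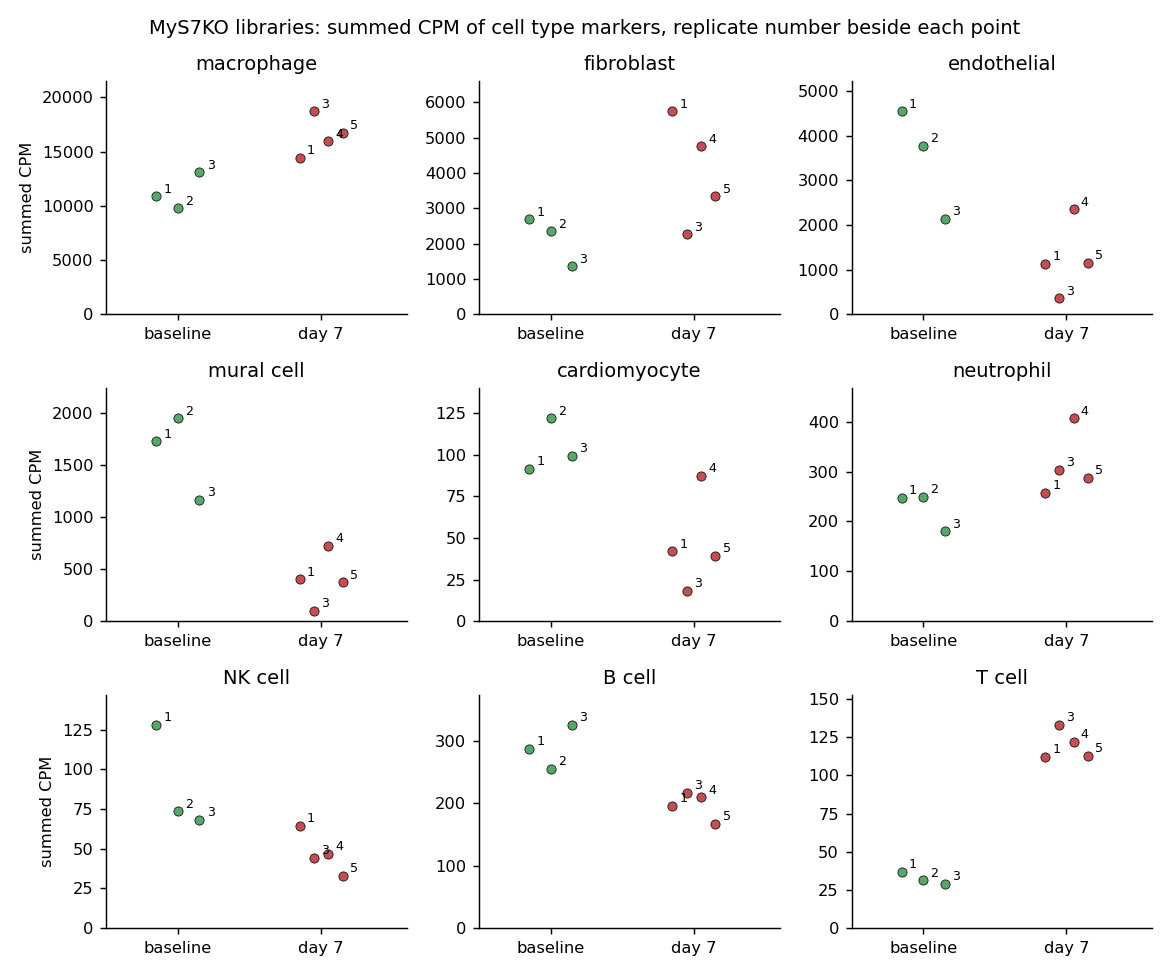
Summed CPM of the tested markers of 9 cell types (vertical axes from 0) in each MyS7KO library at baseline and day 7, with the replicate number beside each point. Macrophage markers are higher at day 7 in every library, endothelial markers overlap between 2144 and 2354 CPM, and mural markers do not overlap.

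Whether the day 7 change depended on the genotype was tested as the difference of the MyS7KO and S7fl/fl changes. In S7fl/fl, 4000 genes were called higher and 4048 lower. The difference was called for 0 of 16001 genes (0%) by edgeR, with 825 genes (5.16%) at an unadjusted p under 0.05, and by limma-voom for 0. That number of 825 depended on single libraries. Leaving out MyS7KO replicate 3 of day 7 gave 1689, leaving out replicate 4 of the same group gave 510, and leaving out baseline replicate 3 of MyS7KO gave 518. In S7fl/fl at day 7, leaving out replicate 2 gave 1636 and leaving out replicate 3 gave 431. DESeq2 called 1, Cd109. The day 7 MyS7KO libraries all held Xist reads and the day 7 S7fl/fl libraries all held Y-linked reads, so genotype and sex cannot be told apart at that time point. Nothing in the responses described above is therefore shown to be particular to MyS7KO cells. The leading genes also changed in S7fl/fl, with Gpnmb at 6.70 ± 0.37, Spp1 at 7.60 ± 0.36, Ctsd at 3.64 ± 0.19, Lyve1 at -3.81 ± 0.54 and Cd163 at -3.35 ± 0.39. Not every list had the same calls in both genotypes. Of 14 CC chemokines, 7 were called lower in MyS7KO and 2 in S7fl/fl. In S7fl/fl, Ccl2 (-0.28 ± 0.23), Ccl7 (0.206 ± 0.265) and Ccl9 (-0.26 ± 0.17) were not called. The difference between genotypes was not called for any of them (edgeR adjusted p = 0.877 each).

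Of the 5 genes with the lowest p for that difference, 4 are given as values that did not pass. Cd109, a membrane protein that binds TGF-beta, stood at 4.8, 4.96 and 3.87 CPM at baseline and 22.2, 21.7, 25.6 and 25.1 CPM at day 7 in MyS7KO, and at 5.41, 5.15 and 7.44 CPM and then 12.4, 14.2 and 14.5 CPM in S7fl/fl. Every MyS7KO day 7 library was above every S7fl/fl day 7 library, and the difference of the changes was 1.19 ± 0.23 on the log2 scale (edgeR adjusted p = 0.435). Pf4 was lower in the day 7 MyS7KO libraries than in any library of the other 3 groups, and S7fl/fl held 426, 511 and 462 CPM at baseline and 300, 495 and 323 CPM at day 7, a difference of -1.11 ± 0.29. Gucy1a1, a subunit of the nitric oxide receptor, changed by -1.47 ± 0.28 in MyS7KO and -3.16 ± 0.34 in S7fl/fl. Gucy1a1 is also made by mural cells, of whose 12 markers 7 were called lower in MyS7KO (11 without day 7 replicate 4) and 12 in S7fl/fl. The part of mural cells in the Gucy1a1 values was not tested. Ighv1-18, an immunoglobulin segment, was at 0 CPM in all 4 day 7 MyS7KO libraries and at 0.164 to 0.743 CPM at baseline. Pf4, Gucy1a1 and Ighv1-18 each had an edgeR adjusted p of 0.877.

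**Figure D5:**
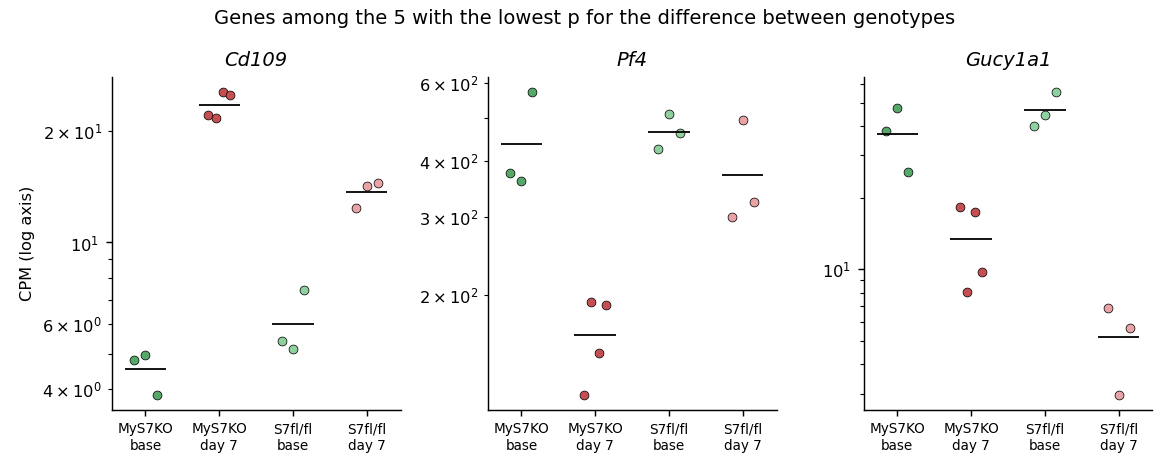
CPM of Cd109, Pf4 and Gucy1a1 (vertical axes, logarithmic) in MyS7KO and S7fl/fl libraries at baseline and day 7, with 1 point per library and a bar at the mean. Cd109 is highest in the MyS7KO day 7 libraries (21.7 to 25.6 CPM) and Pf4 is lowest there (119 to 192 CPM).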

How the data were processed

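Poly(A) RNA of Ly6G-negative, CD11b-positive cardiac cells was sequenced as 150 bp read pairs, per the labels' protocols. The deposited table holds the authors' whole-number read counts per gene, used as they stand, and a second deposited table holds the authors' FPKM values. HTSeq 0.6.1, TopHat2 2.0.9, Cufflinks 2.1.1 and the build GRCm38.p6 are listed, per the submitters' processing notes, with no role given. Strandedness is not given in the sources used here, so overlapping and antisense genes may share reads, and so may near-identical copies such as Hspa1a and Hspa1b.

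Counts of all 23 libraries were fitted with edgeR 4.0.16 in R 4.3.3 (TMM, filterByExpr, robust quasi-likelihood, 1 coefficient per group). P-values were adjusted over the 16545 genes tested, and autosomal genes are reported. Principal components used the 1000 most variable autosomal genes. The gene lists, the comparison and the tests were chosen with earlier results of these data known. Rule-named genes were Smad7, Lyz2 and Lyz1, the 12 highest and 12 lowest changes among called genes with non-overlapping groups and a mean of at least 8 CPM (predicted, immunoglobulin and haemoglobin genes left out), up to 3 called genes per functional list, by lowest p, and the 5 genes of lowest p for the genotype difference. All other named genes were chosen after their values were seen. Values of a few genes are not reported here. Replicate libraries of a group differed beyond counting noise (17.8 to 56.6 as chi-square over degrees of freedom). The analysis was repeated with DESeq2 1.42.0, limma-voom (limma 3.58.1), RLE scaling, all genes with a count, a fit of the groups compared only, limma on log2 FPKM with pseudocounts of 1 and 0.1, the replicate number as a block, sex as a covariate, and each library left out. A fit with the 1 baseline library holding Xist reads was added after seeing the data. The pipeline was also run on simulated counts with changes planted in few genes, a setting unlike the many changed genes of these data.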

Additional observations from a re-analysis of the deposited data

Results flagged for a closer look

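In 10 of the 225 named genes tested, 1 of the 4 day 7 libraries stood apart from the other 3 by Dixon's criterion, which flags about 1 group in 20 by chance. Replicate 3 was high in 5 of them, at 329 CPM for Gas6, 2062 CPM for Hmox1, 972 CPM for Mrc1, 47.1 CPM for Tfec and 411 CPM for Tgfb1. Replicate 4 was high for Nos2 (111 CPM) and for Pla2g2d (5.07 CPM). Replicate 5 was low for Fn1 (1976 CPM), and replicate 1 was low for Hspa8 (2583 CPM) and Uqcrfs1 (57.8 CPM). Replicate 5 was also the deepest day 7 library by the same criterion, at 20.2 M counts.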

How the results depend on the processing

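Over the 18 alternatives, 177 of the 225 named genes kept the direction and the side of the threshold of their day 7 change in every one, and no named gene changed direction past the threshold. The number of genes called was 7050 and ran from 5574 to 8165 over 17 of the alternatives. The lowest with a library left out was 5574, without baseline replicate 2, and the highest 6976, without day 7 replicate 1. Genes called higher made up 43 to 54.4% of those called. With the 1 baseline library that held Xist reads as the only baseline library, which leaves 1 sample assumed to vary like the other groups, 4062 genes were called, 2158 higher and 1904 lower. The replicate block gave 6337 calls and the sex covariate 5934. Calls of Smad7, Hmox1, Skil, Csf1, Ccl22, Dcn, Pdgfra and Tfeb were among those lost with sex as a covariate. Same-numbered libraries had residual correlations of 0.346 and 0.368 and differently numbered ones -0.476 to 0.409. With so few same-numbered libraries, these values cannot decide whether a number stands for a shared batch. The genotype difference was called for 0 genes in every alternative except DESeq2 (1 gene) and limma on log2(FPKM + 1) without a filter (13 genes, most of them predicted genes), and for 0 with each library left out. Depth limits the genes of a few counts, for which levels replaced folds.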
